A study of Mus musculus with 8 samples.

Results

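Transcript levels of 10 genes of the UDP-glycosyltransferase families Ugt2 and Ugt3 were described in mouse liver. They are Ugt2a3, Ugt2b1, Ugt2b5, Ugt2b34, Ugt2b35, Ugt2b36, Ugt2b37, Ugt2b38, Ugt3a1 and Ugt3a2. They are the listed genes of these families that have a row of their own among 22180 genes measured, where a row had to name exactly 1 gene, and of several such rows the one with the largest average across the 8 arrays was kept. Each of the 10 genes had 1 such row. Total RNA from liver segments was hybridised to Affymetrix mouse arrays. The 4 arrays of the wild-type group and the 4 arrays of the IL-10 knockout group all carry the labels C57BL/6, female and 6 weeks of age. Mice of both groups drank 3% dextran sulfate sodium (DSS), which injures the colon lining, for 7 days, so each comparison is between genotypes under DSS and no group without DSS was analysed here. The design text counts 4 mice per genotype, and the labels do not tie an array to a numbered animal, and a p-value therefore reflects how far these samples spread, which may be partly technical. The kind of Il10 mutation is not given in the labels. Levels are log2 values from robust multi-array averaging (RMA), and errors are SD over n = 4 arrays unless SE is stated.

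UDP-glucuronosyltransferases sit in the membrane of the endoplasmic reticulum and join a sugar from a UDP-sugar to a small lipophilic molecule, which makes it soluble enough to leave through bile or urine. Ugt2 enzymes use UDP-glucuronic acid and act on steroid hormones, bile acids and drugs, and the liver is a main site of their expression. Ugt3 enzymes are related but prefer other donors: the human enzyme UGT3A1 uses UDP-N-acetylglucosamine, and human UGT3A2 uses UDP-glucose and UDP-xylose.

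The 8 Ugt2 genes lie together on chromosome 5 and both Ugt3 genes lie side by side on chromosome 15. Promoter windows of 250 bases before the annotated start were available for 9 of the 10 genes from RefSeq (assembly GRCm38.p6). Ugt3a2 had no entry. The sequences below are shown because Ugt3a1 and 7 of the 8 Ugt2 members carry the same spaced letters. Gapped palindromes, which are 4 letters, a gap of 0 to 9 bases and the reverse complement of the letters, were searched in these windows, and the one present in most of them was GTTANNNNNTAAC. It reads the same on both strands. It was found in 8 of the 9 windows, against 101 of all 32851 windows (0.307%), and the next of the 89 palindromes in these windows was found in 4. In those 8 it began between 61 and 130 bases before the start. Ugt2b34 and Ugt2b36 also carry it, and their lines are not shown. Each line gives 61 bases in 5′ to 3′ direction on the gene's own strand, with the 13 bases of the motif in capitals:
Ugt3a1 (chr15:9279675-9279735, plus strand): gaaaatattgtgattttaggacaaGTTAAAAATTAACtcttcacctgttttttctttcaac
Ugt2b1 (chr5:86926556-86926616, minus strand): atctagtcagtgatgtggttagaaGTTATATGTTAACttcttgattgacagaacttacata
Ugt2b35 (chr5:87000766-87000826, plus strand): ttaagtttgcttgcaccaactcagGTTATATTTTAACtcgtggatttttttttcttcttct
Ugt2b5 (chr5:87140365-87140425, minus strand): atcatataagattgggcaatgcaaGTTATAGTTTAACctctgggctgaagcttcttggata
Ugt2b37 (chr5:87254830-87254890, minus strand): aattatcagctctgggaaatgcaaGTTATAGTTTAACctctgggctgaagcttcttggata
Ugt2b38 (chr5:87424231-87424291, minus strand): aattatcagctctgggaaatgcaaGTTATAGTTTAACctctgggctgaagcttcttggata
Ugt2a3 (chr5:87337213-87337273, minus strand): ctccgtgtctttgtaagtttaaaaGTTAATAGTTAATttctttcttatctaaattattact
Ugt3a1, Ugt2b1 and Ugt2b35 are the genes that passed the test described further on. The shown stretches of Ugt2b37 and Ugt2b38 were identical (100%), and that of Ugt2b5 had 82% of its bases in common with either. Ugt2a3 matched 7 of the 8 fixed letters of the motif in the capitals of its line, and 5% of all windows match at least that well. Ugt2a1 and Ugt2a2, which are not among the 10 genes, matched 6 of the 8 letters at best. The search was designed after these sequences had been read and picked the motif from them, so the share among all windows is a description, and a match describes letters, not a site in use.

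The arrays are not uniform in ways that the labels leave out, and these ways touch the results. Replicates 1 and 2 of each group had signal of Y-linked genes (Kdm5d at 8.03 to 8.17), and replicates 3 and 4 of each group had signal of Xist (11.7 to 11.8) with Kdm5d at 4.42 to 4.56, though all 8 are labelled female. Both groups hold 2 arrays of each kind, called the Y-linked set and the Xist set from here on. Wild-type replicates 1 and 3 and knockout replicates 1 and 2 had Umod, a transcript of the kidney, at 8.21 to 8.96, against 6.30 to 7.18 in the other 4 arrays. The row of Il10 was higher, not lower, in the arrays labelled knockout (5.97 ± 0.32 against 4.97 ± 0.08; limma adjusted p = 0.00851). The labels do not say whether the probes of that row fall in the mutated stretch, and so that row is no check on the labels; the groups are called by their labels throughout. Hepatocyte markers were well measured on every array: none of the 12 lay below the array medians, and their summed level was 16.5 to 16.6 on all 8 arrays. That sum is led by its highest rows, such as Alb, whose wild-type mean of 13.63 is near the highest value of all rows, 13.77. It is therefore no measure of the share of hepatocytes.

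All 10 Ugt genes had a lower mean in the knockout arrays, and for Ugt3a1, Ugt2b1 and Ugt2b35 the difference passed the test. The test was limma over all 22180 genes, with a gene called when its adjusted p was below 0.05. The 3 called genes stand against 1.59% of all genes called lower, and none was called higher, against 1.56% of all genes. The median difference of the 10 genes was -0.61 log2 units, against 0.025 over all genes, of which 44.0% had a negative difference. In 4 of the 10 genes every knockout array lay below every wild-type array, which held for 5.74% of all genes. Since RNA came from whole liver, fewer cells of a type and less RNA per cell cannot be told apart.

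**Figure D1:**
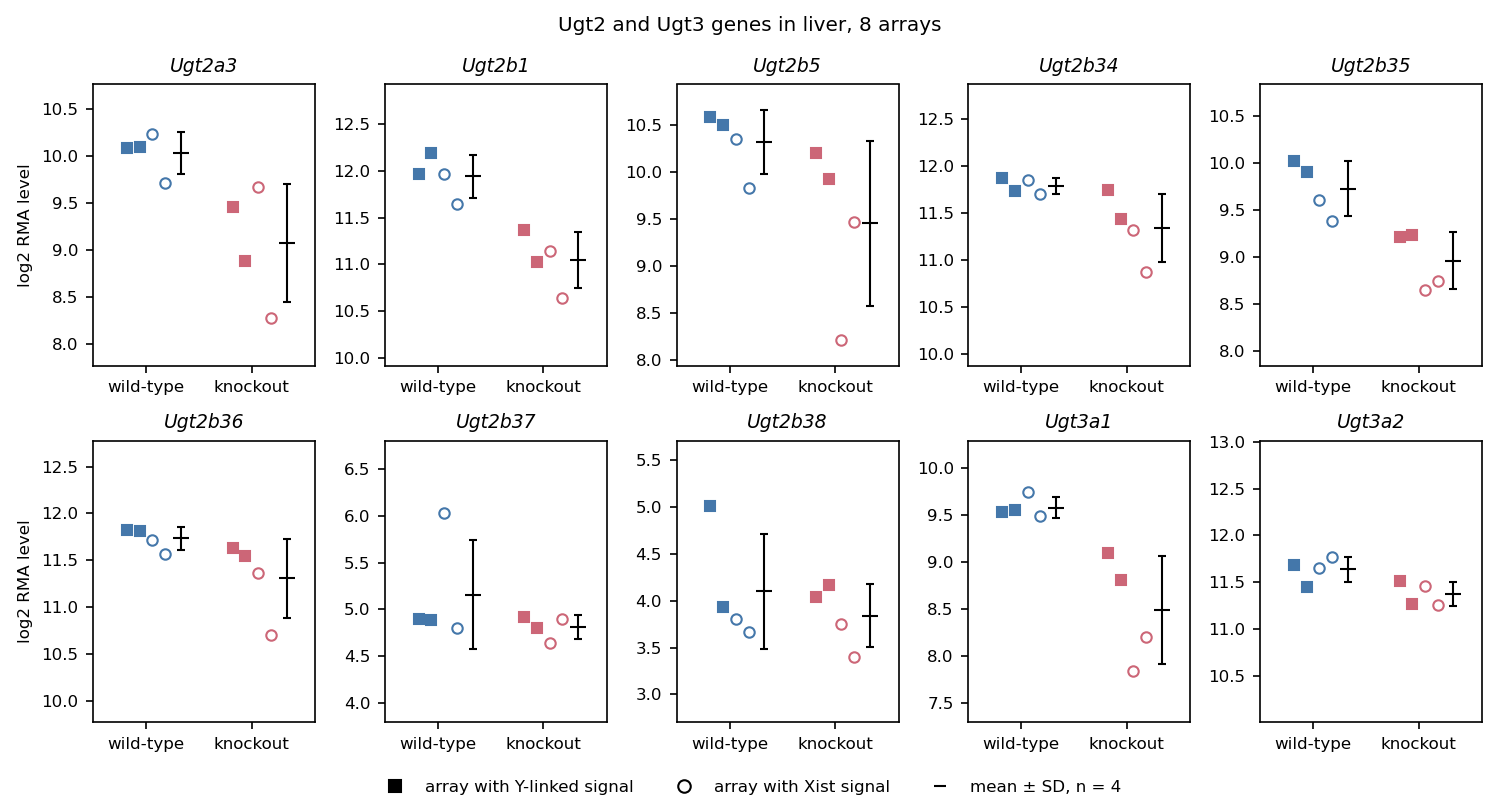
Log2 RMA level (vertical axis) of each Ugt gene on the 4 wild-type and the 4 knockout arrays. Each point is 1 array, filled squares are arrays with Y-linked signal, open circles are arrays with Xist signal, and the bar gives mean ± SD with n = 4. Ugt3a1, Ugt2b1, Ugt2b35 and Ugt2a3 have groups that do not overlap, and Ugt2b37 and Ugt2b38 lie far lower on the axis with 1 high wild-type array each.

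Among the Ugt2b genes, the family best known for steroid and drug conjugation in liver, Ugt2b1 fell furthest of those called. Its row (17449322) read 11.96, 12.19, 11.96 and 11.64 on the wild-type arrays and 11.37, 11.03, 11.15 and 10.65 on the knockout arrays. The highest knockout array lay below the lowest wild-type array. The means were 11.94 ± 0.23 and 11.05 ± 0.30, and the difference was -0.89 log2 units (SE 0.16; limma adjusted p = 0.0203), or 1.86-fold lower. Without wild-type replicate 1, 2 or 3 the call was lost, with adjusted p up to 0.0633.

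Ugt2b35 (row 17438621) also fell. It read 10.03, 9.90, 9.61 and 9.38 on the wild-type arrays and 9.21, 9.23, 8.65 and 8.75 on the knockout arrays. The groups did not overlap, though wild-type replicate 4 and knockout replicates 1 and 2 lay close to each other. The means were 9.73 ± 0.29 and 8.96 ± 0.30, a difference of -0.77 (SE 0.17; limma adjusted p = 0.0447), or 1.70-fold lower. This call lay near the threshold and was lost without wild-type replicate 1, 2 or 3 or knockout replicate 3 or 4, with adjusted p up to 0.126.

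Ugt2b5 (row 17449346) did not pass the test. It read 10.59, 10.50, 10.36 and 9.83 on the wild-type arrays and 10.21, 9.93, 8.21 and 9.47 on the knockout arrays. The groups overlapped, and knockout replicate 3 alone lay more than 1 log2 unit below every other array. The difference was -0.87 (SE 0.37; limma adjusted p = 0.215), with a range over all 8 arrays of 2.37, the widest of the 10 genes. Without knockout replicate 3 the difference was -0.45.

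Ugt2b34 and Ugt2b36 were high and steady in the wild-type arrays. Ugt2b34 (row 17449313) read 11.87, 11.73, 11.85 and 11.71 there, and 11.74, 11.43, 11.32 and 10.87 on the knockout arrays. Ugt2b36 (row 17449332) read 11.83, 11.82, 11.71 and 11.57 on the wild-type arrays and 11.63, 11.55, 11.36 and 10.70 on the knockout arrays. In both genes knockout replicate 4 was lowest and knockout replicate 1 lay within the wild-type range. The difference of Ugt2b34 was -0.45 (SE 0.15; limma adjusted p = 0.138), and the call was gained without knockout replicate 1 (adjusted p = 0.0412), while without knockout replicate 4 the difference was -0.29 (adjusted p = 0.231). The difference of Ugt2b36 was -0.42 (SE 0.18; limma adjusted p = 0.211), and -0.22 without knockout replicate 4. Their profiles over the 8 arrays, each centred on its mean, were the closest of any pair among the 10 genes, with a root mean square difference of 0.10 log2 units.

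Ugt2b37 and Ugt2b38, whose shown promoter stretches were identical, were the 2 genes with a mean below every array median (6.09 to 6.22). Ugt2b37 (row 17449355) read 4.90, 4.89, 6.03 and 4.80 on the wild-type arrays and 4.92, 4.80, 4.64 and 4.89 on the knockout arrays. Ugt2b38 (row 17449372) read 5.01, 3.93, 3.80 and 3.66 on the wild-type arrays and 4.04, 4.17, 3.75 and 3.40 on the knockout arrays. A single wild-type array was high in each, replicate 3 for Ugt2b37 and replicate 1 for Ugt2b38, and the other values of the groups overlapped. The differences were -0.34 (SE 0.24; limma adjusted p = 0.431) for Ugt2b37 and -0.26 (SE 0.28; limma adjusted p = 0.610) for Ugt2b38. Without the high array the difference was -0.051 for Ugt2b37 and 0.041 for Ugt2b38. Close relatives of this family can share probes, and no source used here says how the array told them apart.

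Ugt2a3, whose human counterpart glucuronidates bile acids, had the second largest mean difference without passing the test. Its row (17449363) read 10.09, 10.10, 10.23 and 9.72 on the wild-type arrays and 9.46, 8.88, 9.67 and 8.27 on the knockout arrays. Every knockout array lay below every wild-type array, and the knockout arrays spread widely. The means were 10.04 ± 0.22 and 9.07 ± 0.63, a difference of -0.96 (SE 0.26; limma adjusted p = 0.0792). It was called without knockout replicate 3 (adjusted p = 0.0411) and with array weights (0.0459). Ugt2a1 and Ugt2a2, which are known from olfactory tissue, share 1 row, which read 4.44 ± 0.19 and 4.61 ± 0.20, a difference of 0.17 (SE 0.13; limma adjusted p over all 41345 rows = 0.520).

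The Ugt3 genes differed from each other in size. Ugt3a1 (row 17310226) fell by the largest amount of the 10 genes. It read 9.53, 9.55, 9.75 and 9.49 on the wild-type arrays and 9.10, 8.81, 7.84 and 8.20 on the knockout arrays. The wild-type arrays lay close together and every knockout array lay below them. The means were 9.58 ± 0.11 and 8.49 ± 0.57, a difference of -1.09 (SE 0.23; limma adjusted p = 0.0379), or 2.13-fold lower. The call was lost without any 1 of the wild-type arrays or without knockout replicate 4, with adjusted p up to 0.113. Its neighbour Ugt3a2 (row 17310237) read 11.69, 11.45, 11.65 and 11.77 on the wild-type arrays and 11.51, 11.27, 11.46 and 11.26 on the knockout arrays. These values overlapped, and the difference of -0.26 (SE 0.093; limma adjusted p = 0.144) came with the narrowest range of the 10 genes, 0.51. An exact permutation test, two-sided, with 70 possible arrangements gave 0.0286, the smallest p it allows, for Ugt3a1, Ugt2a3, Ugt2b1 and Ugt2b35 alike.

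**Figure D2:**
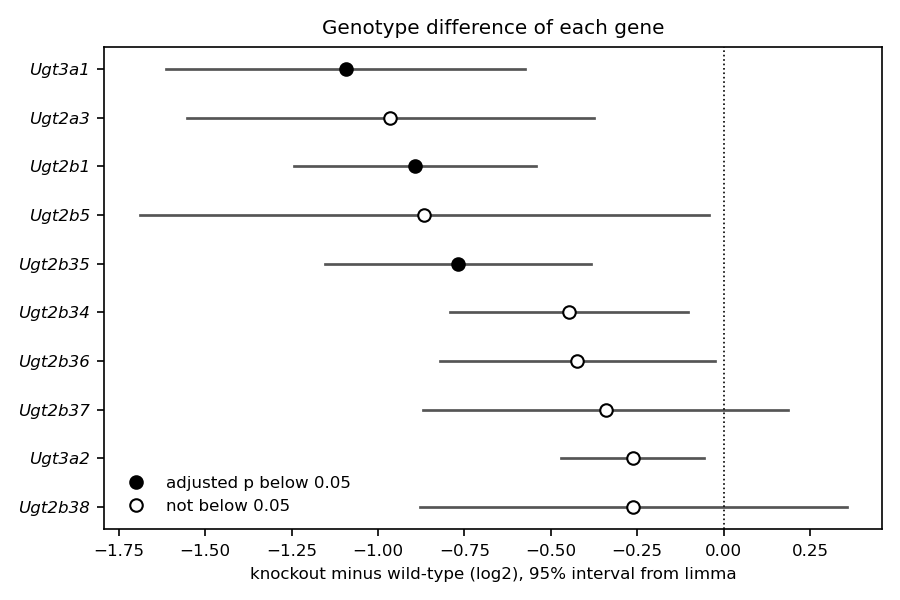
Difference between knockout and wild-type means (horizontal axis, log2) for each Ugt gene, with its 95% interval from limma. Filled points have an adjusted p below 0.05 over all genes: Ugt3a1 at -1.09, Ugt2b1 at -0.89 and Ugt2b35 at -0.77; the intervals of Ugt2b37 and Ugt2b38 include 0.

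The low values did not fall on the same knockout array in every gene. Knockout replicate 3 was the lowest of the 8 arrays for 4 genes, Ugt2b5, Ugt2b35, Ugt2b37 and Ugt3a1, and knockout replicate 4 for the other 6. Of the 8 genes above the array medians, knockout replicate 4 lay below the knockout mean for 7 and knockout replicate 1 for 0. Wild-type replicate 4 lay below the wild-type mean for 7 of the 8. The median deviation of these 8 genes from their group mean was -0.35 log2 units on knockout replicate 4 and 0.35 on knockout replicate 1, while that of all genes stayed between -0.014 and 0.020 on every array.

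Within the Y-linked and Xist sets, each of 2 against 2 arrays, all 10 genes were lower in the knockout mean, which held for 28.8% of all genes. The median difference of the 10 genes was -0.74 in the Xist set and -0.42 in the Y-linked set, against 0.032 and 0.014 over all genes. With the set as a block in the fit, the same 3 genes were called, against 2.55% of all genes called lower. Their limma adjusted p then read 0.00205 for Ugt2b35, 0.00873 for Ugt2b1 and 0.0176 for Ugt3a1. Ugt2b35 differed by -0.80 in the Xist set and -0.74 in the Y-linked set, and Ugt2b1 by -0.90 and -0.88. Ugt3a1 differed by -1.60 in the Xist set (limma adjusted p = 0.0128) and -0.59 in the Y-linked set (limma adjusted p = 0.129). The test of that difference between sets did not pass for Ugt3a1 (1.02, SE 0.22; limma adjusted p for the interaction = 0.521). No Ugt gene was called for it by limma, against 0.0271% of all genes, and 1 had an unadjusted p below 0.05, against 5.48% of all genes.

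**Figure D3:**
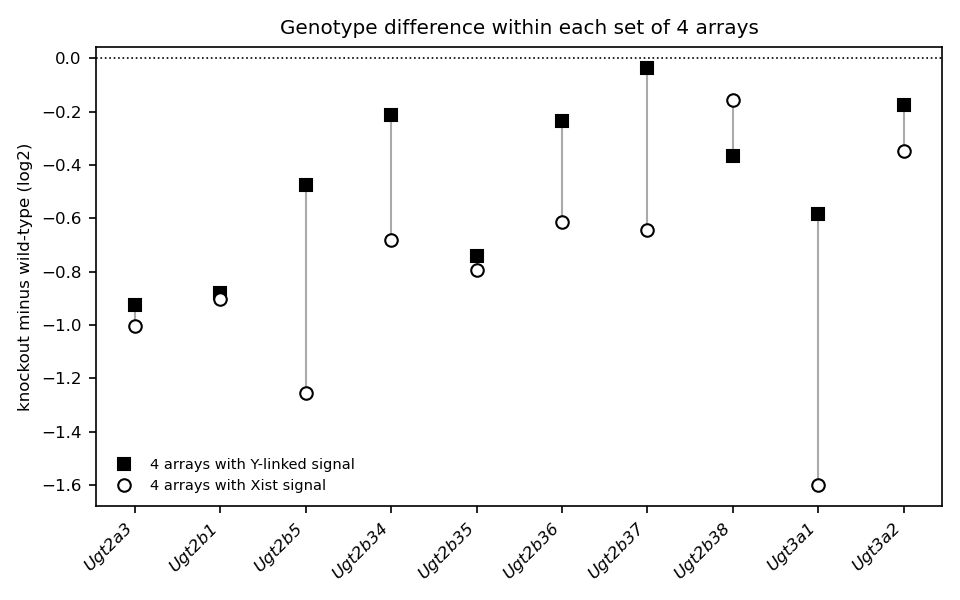
Difference between knockout and wild-type means (vertical axis, log2) of each Ugt gene within the 4 arrays with Y-linked signal (filled squares) and the 4 arrays with Xist signal (open circles). All values lie below 0, and the gap between the sets is widest for Ugt3a1 (-0.59 against -1.60).

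Across both genotypes, 8 of the 10 genes had a higher mean in the Y-linked set than in the Xist set (45.3% of all genes), with a median of 0.33 against -0.012 over all genes. Ugt2b35 was the 1 gene called, against 0.198% of all genes in either direction and 0.135% higher in the Y-linked set (0.50, SE 0.08; limma adjusted p = 0.0484), and 4 had an unadjusted p below 0.05, against 6.74% of all genes. That call was lost without any 1 of the arrays other than wild-type replicate 3, with adjusted p up to 0.252, and after all arrays were brought to 1 median (0.0864). Ugt2b5 had the widest gap between the sets, 0.84 (SE 0.27; limma adjusted p = 0.588), which was 0.45 in the wild-type and 1.23 in the knockout arrays.

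Kidney transcripts moved with some of the Ugt values. In the knockout group the arrays with kidney signal are those of the Y-linked set, and the others are those of the Xist set. The splits by kidney signal and by set therefore cannot be told apart among the knockout arrays, and only the wild-type arrays divide differently. The summed level of the 6 kidney markers was 10.2 to 10.8 on the 4 arrays with high Umod and 8.97 to 9.29 on the other 4, and none of the 6 markers lay below all array medians. Umod is 1 of the 6 and also defined the split, so its part of that gap was fixed in advance. Of the 6 markers, Umod included, 4 were called for the split by limma. All 10 Ugt genes had a higher mean on those 4 arrays, against 50.3% of all genes. The gap was 0.77 for Ugt2b5, 0.53 for Ugt3a1, and 0.57 and 0.35 for Ugt2b38 and Ugt2b37, whose means lie below the array medians. Without wild-type replicate 3, Ugt2b37 averaged 4.87 on the arrays with kidney signal and 4.81 on the others. None of the 10 genes was called for the gap by limma, against 0.0676% of all genes, and 5 had an unadjusted p below 0.05, against 16.5% of all genes. With this signal as a block, the same 3 genes were called lower in knockout arrays, against 3.81% of all genes. Ugt3a1 differed by -0.68 on the arrays with the signal (limma adjusted p = 0.142) and -1.50 on those without (0.0312). Ugt2b1 differed by -0.76 and -1.02, and Ugt2b35 by -0.59 and -0.94, none of them called in these smaller sets. The part of kidney RNA in these values was not tested.

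Of the 10 neutrophil markers 9 were called higher in the knockout arrays, against 1.56% of all genes. The median difference of the 10 was 0.87. Their summed level was 9.62 to 10.1 on the wild-type and 10.7 to 11.6 on the knockout arrays. Of the 11 Kupffer cell and macrophage markers 5 were called higher. The median difference of the 11 was 0.56, with summed levels of 13.0 to 13.3 on the wild-type and 13.6 to 13.9 on the knockout arrays. Of the sinusoidal endothelium markers 1 of 6 was called higher (Lyve1), and of the stellate cell markers 1 of 6 lower (Lrat). With each array left out in turn, the call of Lyve1 was kept. The call of Lrat was kept only without knockout replicate 1 among those fits (limma adjusted p up to 0.124). Of the T and NK cell, B cell, bile duct, intestinal and kidney markers 0 were called by genotype. Of the 12 hepatocyte markers 1 was called, Tat, which was higher. That call was lost without wild-type replicate 2, 3 or 4 or knockout replicate 4, with limma adjusted p up to 0.0758. The median over the hepatocyte markers was -0.0046. Among those not called, every knockout array lay below every wild-type array for Alb (-0.12) and Ahsg (-0.065), and above for Arg1 (0.36). The part of the shifts in other cell types in the Ugt values was not tested.

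The neighbours of the Ugt genes on the chromosome were compared because genes of a cluster can share a chromosomal setting. In the order of GRCm38.p6, Ugt2b34, Ugt2b1, Ugt2b35, Ugt2b36, Ugt2b5, Ugt2b37, Ugt2a3 and Ugt2b38 follow each other on chromosome 5. Between Ugt2b34 and Ugt2a1, which comes after Ugt2b38, there are 12 pseudogenes. The called genes Ugt2b1 and Ugt2b35 are next to each other. Of the 12 measured neighbours 0 were called by limma without a block. With the set as a block 2 were called lower, against 2.55% of all genes, and with the kidney signal as a block 3, against 3.81%. Sult1b1, a sulfotransferase that follows the cluster, differed by -0.52 (SE 0.14; limma adjusted p = 0.0722, and 0.0458 with the kidney block). Sult1d1 and Sult1e1 beyond it differed by 0.31 and 1.31 (limma adjusted p = 0.592 and 0.390), and by -0.023 and 0.40 without knockout replicate 3. On chromosome 15, Nadk2 differed by -0.60 (SE 0.16; limma adjusted p = 0.0788) and Lmbrd2, which is next to Ugt3a1, by -0.58 (SE 0.16; limma adjusted p = 0.0762), while Skp2 between them differed by 0.039. With the set as a block the limma adjusted p was 0.0174 for Nadk2 and 0.0438 for Lmbrd2, and with the kidney block 0.0286 and 0.0308. Lmbrd2 was also called without knockout replicate 1 (0.0200).

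**Figure D4:**
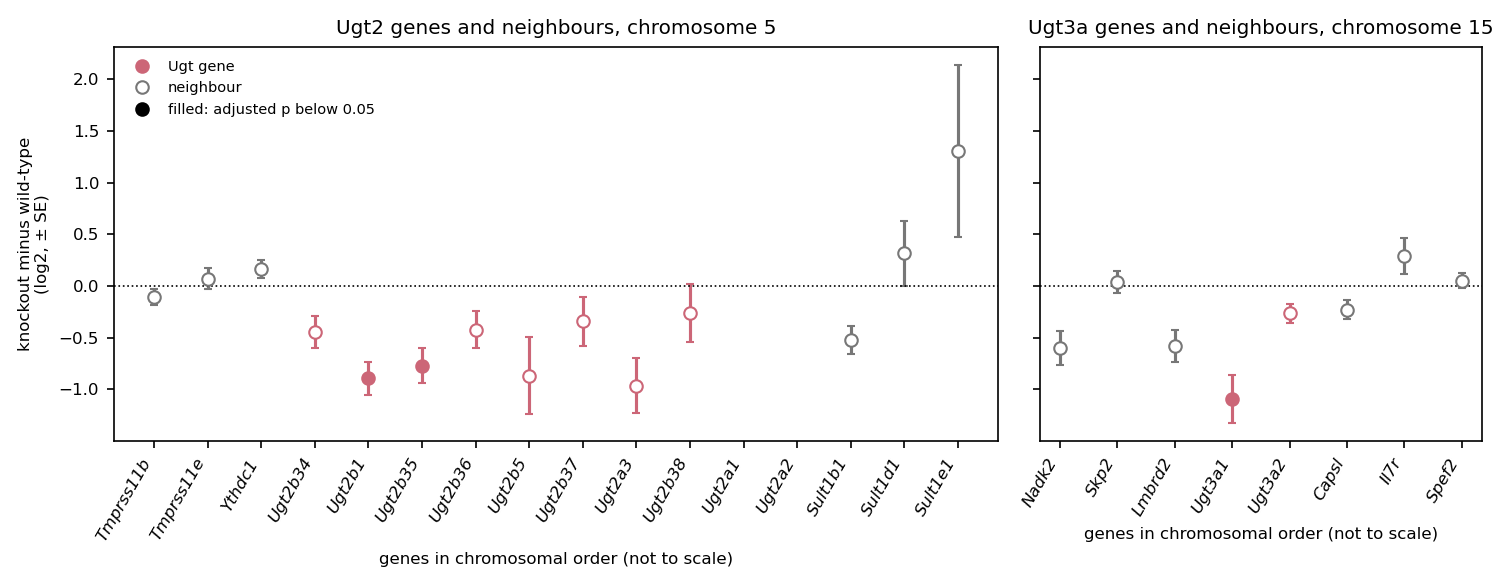
Difference between knockout and wild-type means (vertical axis, log2, ± SE) for the Ugt genes and their neighbours in chromosomal order, which is not to scale, on chromosomes 5 and 15. Filled points are the called genes Ugt2b1, Ugt2b35 and Ugt3a1, and the neighbouring sulfotransferase Sult1e1 is the highest point at 1.31 (0.40 without knockout replicate 3).

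The sugar donor of the Ugt2 enzymes is made from UDP-glucose in the cytosol and carried into the endoplasmic reticulum. Of 7 measured genes of UDP-sugar supply, 1 was called lower, against 1.59% of all genes, and 0 higher, with a median of 0.0087. The gene called was Ugp2, which makes UDP-glucose. Ugp2 read 10.47, 10.53, 10.80 and 10.56 on the wild-type arrays and 10.11, 9.93, 9.76 and 9.63 on the knockout arrays. Every knockout array lay below every wild-type array, and the difference was -0.73 (SE 0.11; limma adjusted p = 0.0130), a call kept with each array left out in turn.

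Ugdh oxidises UDP-glucose to UDP-glucuronic acid. It read 11.08, 11.11, 10.17 and 9.86 on the wild-type arrays and 10.56, 10.36, 9.69 and 9.35 on the knockout arrays. The Y-linked set was higher in both groups, by 1.01 across genotypes (SE 0.11; limma adjusted p = 0.00487). The genotype difference was -0.57 (SE 0.33; limma adjusted p = 0.355) without, and called with, the set as a block (0.0203). Slc35d2, a Golgi carrier of UDP-sugars, differed by -0.83 (SE 0.24; limma adjusted p = 0.0867) and was also called with the block (0.0266). Slc35d1, which carries UDP-glucuronic acid into the endoplasmic reticulum, differed by 0.024 (SE 0.095; limma adjusted p = 0.905) and changed sign with a common median (-0.027). Uap1, which makes UDP-N-acetylglucosamine, differed by 0.26, Pgm2, a phosphoglucomutase, by 0.25, and Uxs1, which makes UDP-xylose, by 0.0087, the last of these negative with a common median (-0.042).

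**Figure D5:**
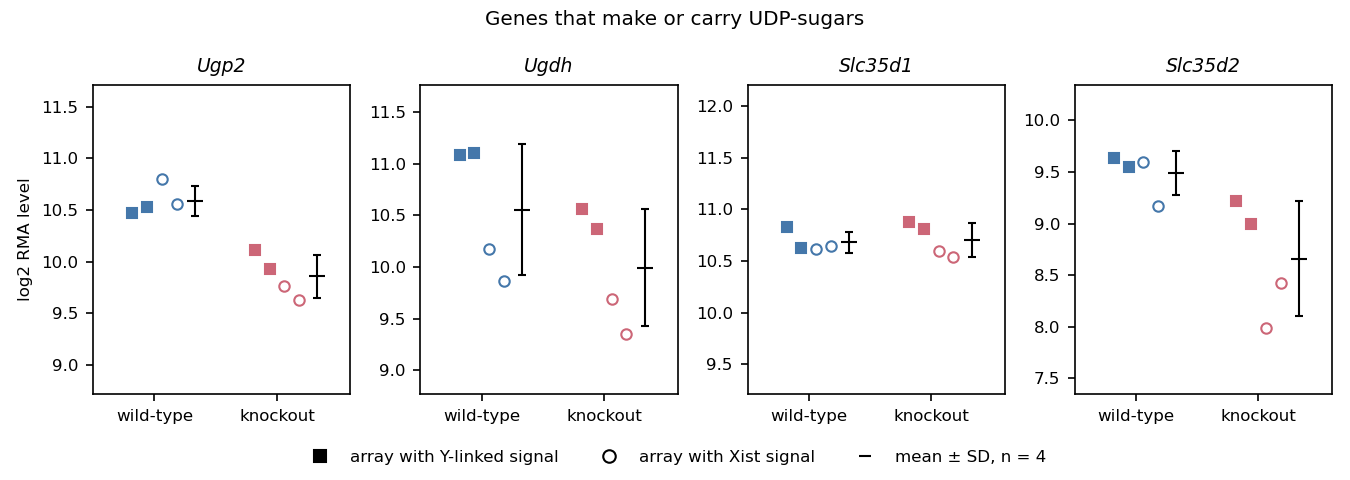
Log2 RMA level (vertical axis) of Ugp2, Ugdh, Slc35d1 and Slc35d2 on the wild-type and knockout arrays, drawn as for the Ugt genes (squares, Y-linked signal; circles, Xist signal; bar, mean ± SD, n = 4). The Ugp2 groups do not overlap, the Ugdh arrays part by set within each group, and Slc35d1 has nearly the same mean in both groups (a difference of 0.024).

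Other UGT enzymes were measured mostly in shared rows. A row of 8 Ugt1a genes, the family that conjugates bilirubin and phenols, read 8.86 ± 0.12 and 8.62 ± 0.16, a difference of -0.24 (limma adjusted p over all rows = 0.257). A row of 5 Ugt1a genes read 9.33 ± 0.058 and 8.90 ± 0.21, a difference of -0.43 (limma adjusted p over all rows = 0.0972). Its lowest wild-type array, at 9.28, lay above its highest knockout array, at 9.11. Ugt8a, which makes galactosylceramide, differed by 0.038 (SE 0.077; limma adjusted p = 0.803), and by -0.013 with a common median.

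Of the 10 genes for export, uptake and hydrolysis of glucuronides, 0 were called, with a median of -0.17. The hepatocyte uptake carrier Slco1a1 had the largest difference. It read 10.81, 11.02, 8.998 and 8.99 on the wild-type arrays and 9.45, 6.95, 5.76 and 6.46 on the knockout arrays. Within each set the knockout arrays lay lower, while the groups overlapped across sets. The difference was -2.80 (SE 0.76; limma adjusted p = 0.0767), and it was called with the set as a block (0.00958). Slco1a4 differed by -1.56 (limma adjusted p = 0.155), with knockout replicate 3, at 10.04, among the wild-type values. The exporters Abcc2, Abcc3 and Abcg2 differed by -0.24, -0.033 and -0.19 and Abcc1 and Abcc4 by -0.16 and 0.15, and the uptake carriers Slco2b1 and Slco1b2 by -0.22 and -0.15. Gusb, the β-glucuronidase that cleaves glucuronides, differed by -0.060. The sign of Abcc3 turned under quantile normalization and cyclic loess (0.0051 and 0.0079).

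Of 14 measured transcription factors known for control of UGT genes, 1 was called lower, against 1.59% of all genes. It was Ppara, the receptor for fatty acids. It read 9.79, 9.76, 9.97 and 9.87 on the wild-type arrays and 9.56, 9.19, 8.695 and 8.70 on the knockout arrays. Replicates 3 and 4 of the knockout group were lowest, and the groups did not overlap. The difference was -0.81 (SE 0.18; limma adjusted p = 0.0401), and was not called without any 1 of the arrays except knockout replicate 1 (adjusted p up to 0.117). Foxa1 differed by -0.42 (limma adjusted p = 0.172) and Hnf4a by 0.17 (limma adjusted p = 0.221).

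The sulfotransferases compete with UGT enzymes for many substrates. Of 11 measured genes of sulfation, 3 were called lower, against 1.59% of all genes, and 0 higher, with a median of -0.30. Papss1 and Papss2, which make the sulfate donor, differed by -1.28 (SE 0.15; limma adjusted p = 0.00599) and -0.91 (SE 0.15; limma adjusted p = 0.0139). The sulfotransferase Sult1c2 differed by -1.51 (SE 0.19; limma adjusted p = 0.00682). Its mean level was among the lowest 40% of genes. Over all pathway lists together, 43 of 57 listed genes were measured, 5 were called lower and 0 higher, with a median of -0.14. Of all genes, 1.59% were called lower. With the set as a block 9 of the 43 were called lower, against 2.55% of all genes.

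The genes whose profile over the 8 arrays was most like that of Ugt2b5, the member with the widest range, were sought among 22179 other genes by root mean square difference after centring each gene on its mean. They were Adra1b, an adrenergic receptor (0.16), Sdr9c7 (0.22), Gulo, the last enzyme of vitamin C synthesis (0.22), Erc2 (0.23) and Bco2, which cleaves carotenoids (0.23). Their likeness to Ugt2b5, low array included, follows from how they were chosen. Adra1b, the closest, read 9.96, 9.74, 9.88 and 9.53 on the wild-type arrays and 9.48, 9.25, 7.71 and 8.70 on the knockout arrays.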

How the data were processed

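Per the submitters' processing notes, the authors made the deposited log2 values with RMA, run in R 3.0.1. No source used here says how probes were summarised or which build was used. Of 41345 rows, 23521 name 1 gene in the platform annotation, 1814 name several and 16010 are not listed. Groups and replicate numbers come from the titles. Differences, as arrays labelled knockout minus wild-type, came from limma 3.58.1 (lmFit, eBayes without trend) in R 4.3.3, unpaired and without a filter, with Benjamini-Hochberg adjustment over 22180 genes. Python 3.11.15 with matplotlib 3.10.9 drew the plots and searched the promoters. The number of arrays limits the precision, and no probe-level intensities were used. The Xist and Y-linked sets were split on Kdm5d at 6, and kidney signal on Umod at 8.

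Members, lists and the split by Xist and Y-linked signal were chosen with earlier results of these data known. The kidney split was chosen after the values were seen. The palindrome search (4 letters on each side, gaps up to 9) was designed after the promoters had been read and takes the pattern in most member windows. The genes given values were the members, Il10, all measured genes of the lists of other UGT genes, UDP-sugar supply and glucuronide transport, up to 3 genes per other list by smallest p, Xist and Y-linked genes, and the 5 profiles closest to the member with the widest range. Neighbours and genes sharing the motif were added, and the neighbours' blocked and left-out fits were chosen after seeing the data. The steps were tested on simulated data for 4 against 4 arrays, in which 200 of the 22180 genes were altered: 82% were found at 1.5-fold (15 false calls) and 98.5% at 2-fold (10 false calls). The simulated noise was independent for each gene and held neither the Y-linked and Xist sets nor the kidney signal. These shares therefore check the steps and do not give the power of the comparison on the real arrays. Alternatives were a filter on the lowest 40% of genes, the mean of a gene's rows, every row, cyclic loess, quantile normalization, a common median, trend and robust estimation in eBayes, an unmoderated test, array weights, blocks for replicate number and set, each set alone, each array left out, an adjusted p below 0.1 and a 1.5-fold minimum. With the kidney split, a block for the signal and the arrays with and without it alone were added as alternatives. Replicate numbers are shared by the groups. Same-numbered arrays did not deviate together in all 4 pairs (correlations of 0.27, 0.04, -0.10 and 0.29), so they were not taken as pairs.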

Additional observations from a re-analysis of the deposited data

Results flagged for a closer look

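Ugt2b37 on wild-type replicate 3 read 6.03, far above the other 3 wild-type arrays (4.80 to 4.90), with a gap of 0.92 of the group's whole range. It was the 1 value marked in this way among 20 groups of 4 arrays, and chance marks about 1 in 20. That array also had kidney signal (Umod at 8.21), as had wild-type replicate 1 (8.46), where Ugt2b37 read 4.90. The part of kidney RNA in this value was not tested.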

How the results depend on the processing

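Of 1790 alternative values for 75 named genes, 1601 kept direction and call, 107 lost and 39 gained the call, and 43 changed sign. Genes not called that stayed so count as kept. Of 24 alternatives each, Ugt2b1 was called in 16, Ugt2b35 in 15 and Ugt3a1 in 14. The 3 Ugt calls became 1 with every row tested, 1 with the Y-linked set alone, 0 and 1 with the arrays with and without kidney signal alone, and 0 to 4 with each array left out. An unmoderated test called 0 Ugt genes and 0 genes in all, with 5 and 4141 at an unadjusted p below 0.05, against 8 and 4700 with limma. The replicate block called 3 Ugt genes, gained Ugt2a3 (adjusted p = 0.0314), lost Ugt3a1 (0.0558) and called 497 genes in all; 2 of the 8 arrays correlated best with their own number. The call for Ugt genes between sets (1) became 0 with a common median, trend and robust settings or the kidney block, and 0 to 1 with each array left out. Pathway calls (5) became 9 with the set block and 4 to 8 with each array left out. The 699 genes called (352 lower, 347 higher) became 332 with every row, 317 with the Xist set alone, 171 with the Y-linked set alone, 1531 with the kidney block, 22 and 130 with the arrays with and without kidney signal alone, 1685 at an adjusted p below 0.1, 377 with a 1.5-fold minimum, and 207 to 1040 with each array left out. With a common median the split was 330 lower and 209 higher. The cause of these changes was not tested.

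Sign changes were all in genes not called. With a common median the differences were -0.013 for Ugt8a, -0.027 for Slc35d1 and -0.042 for Uxs1, with quantile normalization -0.010 for Ugt8a and 0.0051 for Abcc3, and with cyclic loess -0.028 and 0.0079. In the Xist set alone they were -0.066 for Slc35d1, -0.064 for Uxs1, 0.062 for Gusb and -0.11 for Nkg7, and in the Y-linked set alone -0.10 for Ugt8a, 0.091 for Abcc3, 0.14 for Slco1b2, 0.032 for Cd79b and 0.32 for Lrp2. With kidney signal they were -0.037 for Pgm2 and 0.066 for Slco1b2, and without it -0.071 for Slc35d1, -0.18 for Uxs1, 0.043 for Gusb, 0.049 for Cd79a, 0.059 for Ms4a1 and 0.028 for Krt19. With each array left out the values ran from -0.41 to 0.041 for Ugt2b38, -0.011 to 0.079 for Ugt8a, -0.035 to 0.080 for Slc35d1, -0.070 to 0.14 for Uxs1, -0.15 to 0.066 for Abcc3, -0.29 to 0.035 for Slco1b2, -0.13 to 0.019 for Cd79b and -0.37 to 0.13 for Lrp2.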

Other observations

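Besides the Ugt genes, 47 measured genes had the motif GTTANNNNNTAAC within 250 bases before their start. Of these, 4 were called lower in the knockout arrays and 0 higher (8.51% against 1.59% of all genes called lower). The median difference of the 47 was -0.034. Afm, a vitamin E binding plasma protein made in liver, differed by -1.49 (SE 0.19; limma adjusted p = 0.00614), and Pklr, the pyruvate kinase of liver and red cells, by -0.94 (SE 0.18; limma adjusted p = 0.0249). Rnf186 and Gramd1c differed by -0.63 and -0.59 (limma adjusted p = 0.00614 and 0.0279). Among the 26 of the 47 with a mean above all array medians, the median difference was -0.29, against -0.0013 over the 12793 such genes. Of these 26, 15.4% were called lower, against 2.47% of the 12793. These genes were chosen by a motif taken from the Ugt promoters after those had been read, so the counts are a description.

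Genes known to differ between male and female liver parted the arrays as Kdm5d did. Of 10 such genes known as higher in males, limma called 7 higher in the Y-linked set and 0 in the Xist set. The median gap of the 10 was 2.36. Of 8 measured genes known as higher in females, 4 were called higher in the Xist set and 0 in the Y-linked set. The median gap of the 8 was -1.65. Of all genes, 0.198% were called in either direction and 0.135% higher in the Y-linked set. Cyp3a44, listed among the second group, fell in the knockout arrays by 1.81 log2 units (SE 0.30; limma adjusted p = 0.0158). Its row was low, with means of 6.15 on the wild-type and 4.34 on the knockout arrays, against array medians of 6.09 to 6.22.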
